A study of Mus musculus with 8 samples.

Results

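The genes described here encode 10 secreted ligands of the TGF-beta superfamily: the TGF-beta isoforms Tgfb1, Tgfb2 and Tgfb3, the bone morphogenetic proteins Bmp2, Bmp4, Bmp5, Bmp6, Bmp7 and Bmp10, and Inhba, the subunit of activin A. They were chosen by gene symbol, and each symbol matched 1 of the 54532 rows of the expression table. RNA came from hearts of mouse littermates taken 4 days after birth. The control group (4 libraries) carried Mrps5 fl/+, a floxed allele of a gene for the small subunit of the mitochondrial ribosome, and no Cre. The cHET group (4 libraries) carried Mrps5 fl/+ with Myh6-Cre, a Cre driven by a cardiomyocyte promoter, so that heart muscle cells lose 1 allele while the other cells of the heart keep both. The series calls the libraries of a group biological replicates, and each is named here as the labels name it. Since mice with Cre alone are not among the libraries, Cre itself and the lost allele cannot be told apart.

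TGF-beta superfamily ligands are made as large precursors, cut by furin-type proteases and secreted as dimers. They bind pairs of type I and type II receptor kinases, which phosphorylate Smad2 and Smad3 for TGF-beta and activin, and Smad1, Smad5 and Smad9 for BMPs. In the heart, BMP signals pattern the atrioventricular canal and outflow tract, TGF-beta2 acts in cushion formation, TGF-beta1 and TGF-beta3 act on fibroblasts and matrix, and BMP10, made by heart muscle, acts on growth of the myocardium and on vessels.

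Levels are given in FPKM, read fragments scaled to gene length and to library total, which the authors deposited. Depth was 15490622 to 19234777 reads per library, rebuilt from the FPKM values. Heart identity was clear in every library, with the ventricular myosin light chain gene Myl2 at 3757 FPKM or more. Mrps5 itself stood at 5.15 to 11.6 FPKM in control and 6.84 to 7.68 in cHET, so the libraries labelled control 2 (6.27) and control 4 (5.15) lay below every cHET library. Other facts also set libraries of the same group apart. The sex genes Xist and Ddx3y gave 3 male libraries (control 1, control 3, cHET 1) and 5 female ones. The brown fat gene Ucp1 reached 17.8 and 16.7 FPKM in control 1 and control 2, 6.56 in cHET 2 and 1.62 in cHET 4, and at most 0.29 elsewhere. FPKM summed over all genes was 450265 and 467217 in control 1 and control 2, and 353291 to 392047 in the other libraries. Atrial genes were low in cHET 3 (values below). In bulk heart RNA, fewer cells of a type and less RNA per cell cannot be told apart.

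No ligand passed the test between cHET and control. Of the 10 ligands, 9 had a mean of at least 1 FPKM and entered the test across 13029 genes, and 0 of the 9 had an adjusted p under 0.05 (limma, Benjamini-Hochberg over all genes tested), against 0.023% of all genes tested. At an unadjusted p under 0.05 there was 1 of 9 (Bmp7, higher), against 8.95% of all genes (5.03% higher and 3.92% lower), and limma voom on rebuilt reads also called 0 ligands. The median log2 fold change of the 9 was -0.066, with 3 above 0 and 6 below, beside 0.0086 for all genes tested. Of all genes tested, 6784 were above 0 and 6245 below. Under TPM scaling the median of the 9 was 0.024 while the median of all genes moved to 0.10. Bmp5, with a mean of 0.357 FPKM, was below the filter and was fitted only without it.

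**Figure D1:**
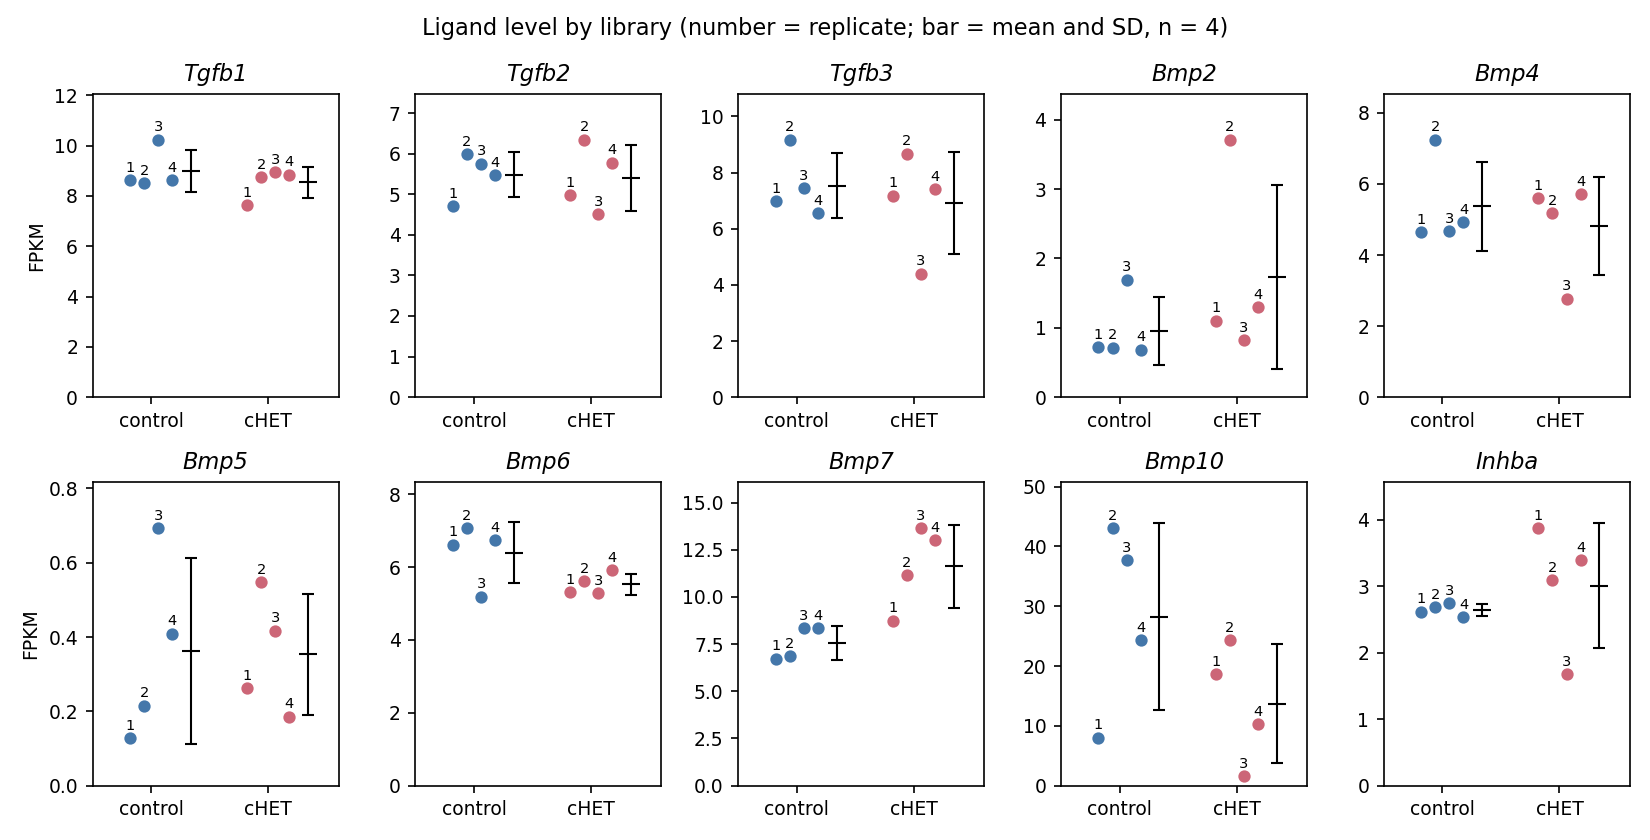
FPKM of each of the 10 ligand genes in the 4 control and 4 cHET libraries, with replicate numbers beside the points and the mean and SD (n = 4) as black bars. The cHET points lie above all control points for Bmp7 alone, and cHET 3 is the lowest point for Tgfb2, Tgfb3, Bmp4, Bmp10 and Inhba.

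Bmp7 was the ligand with the smallest p and the one whose groups did not overlap. BMP7 is a secreted BMP with roles in kidney, eye and heart cushion development. The gene (ENSMUSG00000008999, GRCm38 chromosome 2, 172868012 to 172940321, minus strand) stood at 6.73, 6.87, 8.36 and 8.36 FPKM in control 1 to 4. It stood at 8.73, 11.1, 13.6 and 13.0 FPKM in cHET 1 to 4. Every cHET library was thus above every control library, with cHET 1 close to the controls and cHET 3 and 4 farthest from them. The means were 7.58 ± 0.901 FPKM in control and 11.6 ± 2.20 FPKM in the cHET group (SD, n = 4), a ratio of 1.53. The log2 fold change was 0.55 (95% interval 0.24 to 0.86; limma, adjusted p = 0.337, unadjusted 0.00307, rank 115 among all genes tested). An exact two-sided permutation test of the FPKM values gave p = 0.0286 (n = 4 per group), the smallest it can give. Groups were apart and higher in cHET for 2.74% of all genes tested, so 1 of 9 ligands is a small count to set beside that share. The gap between the groups was narrow: 530 reads in control 3 gave a 95% Poisson interval of 7.66 to 9.10 FPKM, and 600 reads in cHET 1 gave 8.05 to 9.46, which overlap. These intervals cover counting error only. In 18 alternative settings the log2 fold change stayed between 0.42 and 0.67, and the adjusted p between 0.121 and 0.845 (limma). No other gene of the table overlaps Bmp7.

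**Figure D2:**
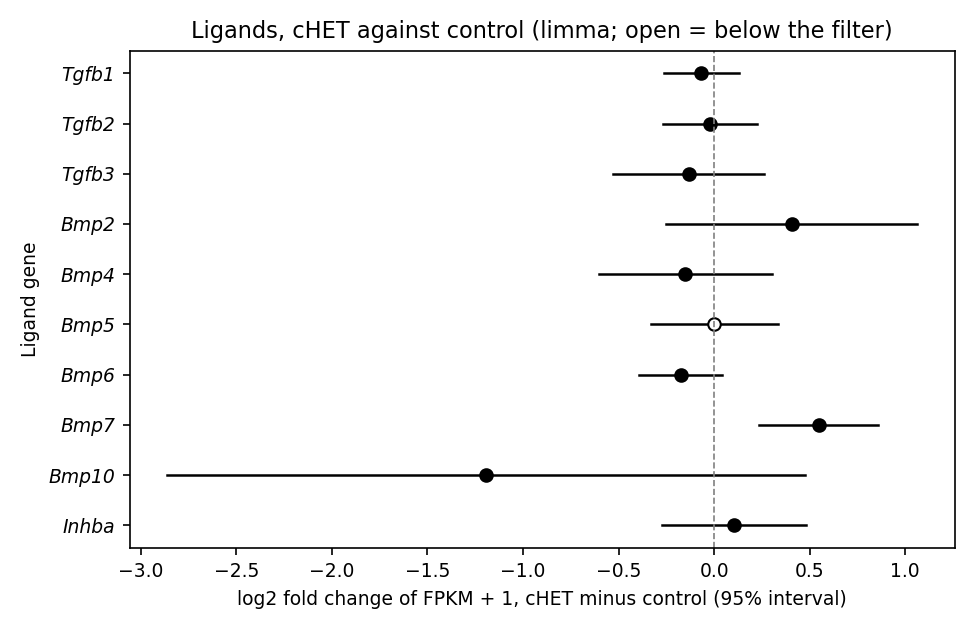
Log2 fold change of FPKM + 1 (cHET minus control, x axis) with its 95% interval for each ligand (y axis), from limma. The interval of Bmp7, 0.24 to 0.86, is the only one that leaves out 0, before any adjustment for the number of genes, and the interval of Bmp10, -2.86 to 0.47, is the widest.

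Bmp10 was the most abundant ligand on average, and its highest and lowest libraries lay farthest apart in ratio. BMP10 is made by cardiomyocytes, in the trabecular myocardium of the embryo and mainly in the right atrium after birth, and it signals through Acvrl1 on endothelial cells. The gene (ENSMUSG00000030046, GRCm38 chromosome 6, 87428994 to 87437677, plus strand) stood at 8.04, 43.0, 37.7 and 24.3 FPKM in control 1 to 4. In cHET 1 to 4 it stood at 18.6, 24.3, 1.55 and 10.2 FPKM. The groups overlapped, with control 1 among the low libraries, and the highest value was 27.7 times the lowest. The means were 28.3 ± 15.6 FPKM in control and 13.7 ± 9.93 FPKM in the cHET group (SD, n = 4). The log2 fold change was -1.19 (95% interval -2.86 to 0.47; limma, adjusted p = 0.65), and -0.50 without cHET 3 (adjusted p = 0.905; 0.452 to 0.926 over all alternatives). It had 112 to 3120 reads per library, and the 95% Poisson interval, for counting error only, ran from 1.28 to 1.87 FPKM in cHET 3 and from 41.5 to 44.6 in control 2.

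Atrial genes varied between libraries too. The 8 markers of atrial cardiomyocytes summed to 1522 to 5301 FPKM in control and 260 to 5483 in cHET. Of the 8, 7 were lowest in cHET 3, against 12.2% of all genes tested. In that library the atrial light chain gene Myl7 was at 69.0 FPKM, Myl4 at 7.55 and the atrial calcium pump regulator gene Sln at 1.37, and no marker was at 0 in any library. Bmp10 did not follow the summed markers in every library. In control 1, Bmp10 was at 8.04 FPKM beside summed markers of 3606 FPKM. In control 4, Bmp10 was at 24.3 FPKM beside summed markers of 1522. The ratio of Bmp10 to Myl7 was lowest in control 1 and highest in control 4, and the groups overlapped on it as well. The part of atrial content in the Bmp10 values was not tested.

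**Figure D3:**
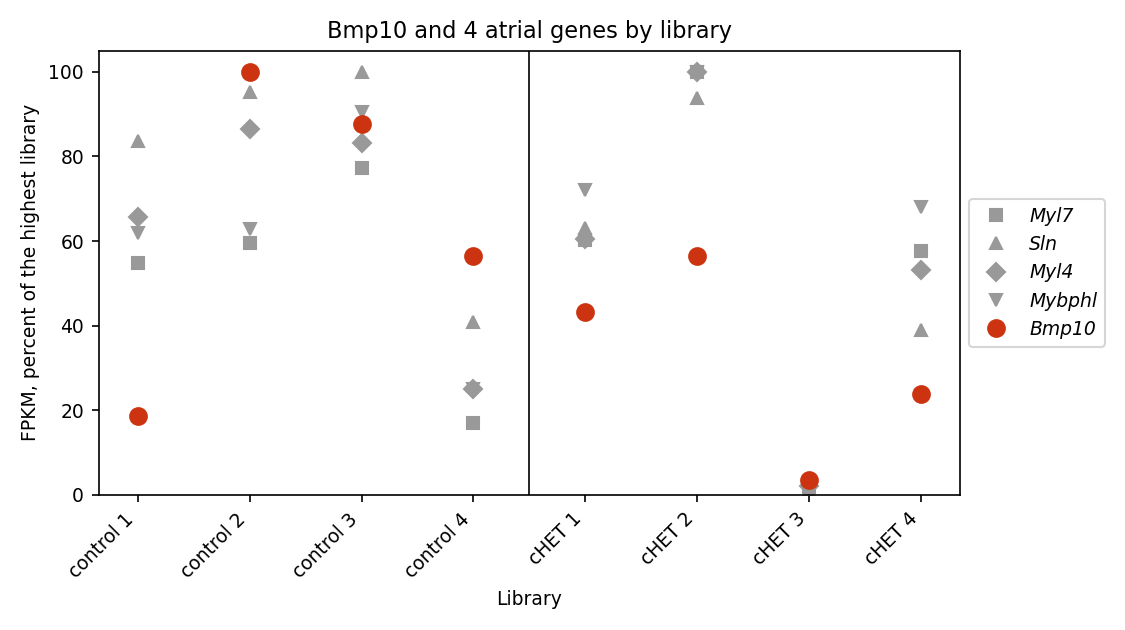
FPKM as a percent of the gene's own highest library (y axis) for Bmp10 and the atrial genes Myl7, Sln, Myl4 and Mybphl in each library (x axis). All 5 genes are near 0 in cHET 3, while in control 1 Bmp10 (8.04 FPKM) lies far below the atrial genes and in control 4 (24.3 FPKM) above them.

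Of the other ligands, 4 had their lowest value in cHET 3 as well. With Bmp10 these were Tgfb2, Tgfb3, Bmp4 and Inhba, 5 of the 9 tested ligands, against 12.2% of all genes tested with their lowest value there. Fibroblast markers were also low in that library: 6 of 8 were lowest in cHET 3, and their sum was 503 FPKM there, against 555 to 771 in control and up to 779 in cHET. Whether the makeup of cHET 3 accounts for these ligand values was not tested. Promoter sequences of RefSeq (GRCm38.p6) held 7 of the 10 ligands, with Tgfb3, Bmp2 and Bmp7 named only, and the 250 bases before the start are shown for the other 4 ligands that were lowest in cHET 3. Capitals mark matches, on either strand, to motifs chosen after the sequences were seen, and no matches overlap. The motif of the core promoter box was searched as TATAAA. The motif bound by the cardiac and endothelial zinc finger factors of the Gata family was searched as AGATAA. Of the E-box, the motif of basic helix-loop-helix factors, only the form CACGTG was searched, and other forms are not marked. The motif of BMP-activated Smads was searched as GGCGCC. The windows lie at chr6:87428744-87428993 (Bmp10, plus strand), chr1:186705990-186706239 (Tgfb2, minus strand), chr14:46390670-46390919 (Bmp4, minus strand) and chr13:16011601-16011850 (Inhba, plus strand), each read 5′ to 3′ on the gene's strand.
Bmp10: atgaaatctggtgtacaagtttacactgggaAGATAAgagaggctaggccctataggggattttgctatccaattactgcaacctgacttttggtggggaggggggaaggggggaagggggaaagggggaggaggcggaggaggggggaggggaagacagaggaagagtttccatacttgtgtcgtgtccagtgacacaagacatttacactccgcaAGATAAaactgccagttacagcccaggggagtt
Tgfb2: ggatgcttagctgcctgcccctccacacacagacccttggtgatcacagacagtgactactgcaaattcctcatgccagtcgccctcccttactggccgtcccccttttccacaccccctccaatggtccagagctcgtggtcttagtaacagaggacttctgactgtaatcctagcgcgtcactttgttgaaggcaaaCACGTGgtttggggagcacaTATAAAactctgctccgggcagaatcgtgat
Bmp4: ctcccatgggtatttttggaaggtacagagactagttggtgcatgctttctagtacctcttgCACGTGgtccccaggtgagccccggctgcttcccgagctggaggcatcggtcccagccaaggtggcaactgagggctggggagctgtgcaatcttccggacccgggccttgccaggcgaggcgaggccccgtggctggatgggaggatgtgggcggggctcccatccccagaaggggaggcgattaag
Inhba: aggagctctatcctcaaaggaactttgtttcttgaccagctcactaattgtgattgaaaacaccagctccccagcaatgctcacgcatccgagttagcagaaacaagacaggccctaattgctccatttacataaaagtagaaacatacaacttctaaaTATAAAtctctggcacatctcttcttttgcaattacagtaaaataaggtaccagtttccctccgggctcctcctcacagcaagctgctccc

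These 4 windows share none of the motifs across all of them. Bmp10 has AGATAA 219 and 33 bases before the start, and 0.938% of 32851 promoters have this motif at least 2 times (9.99% at least once). Tgfb2 has TATAAA 31 bases and CACGTG 51 bases before the start, and Inhba has TATAAA at 91 bases. Bmp4 has CACGTG at 188 bases. So does Bmp6 at 127 bases, a ligand that was lowest in control 3 and whose window is not shown. Over all promoters, 12.4% have TATAAA, 6.02% CACGTG and 9.59% GGCGCC, which none of the 7 ligand windows held. The GC content was 43.2% for Inhba, 52.0% for Bmp10, 53.6% for Tgfb2 and 63.2% for Bmp4, beside a median of 52.4% over all promoters. In the other ligand windows it was 75.2% for Tgfb1, 68.8% for Bmp6 and 42.8% for Bmp5. A match is a description of letters, and the data do not measure binding.

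**Figure D4:**
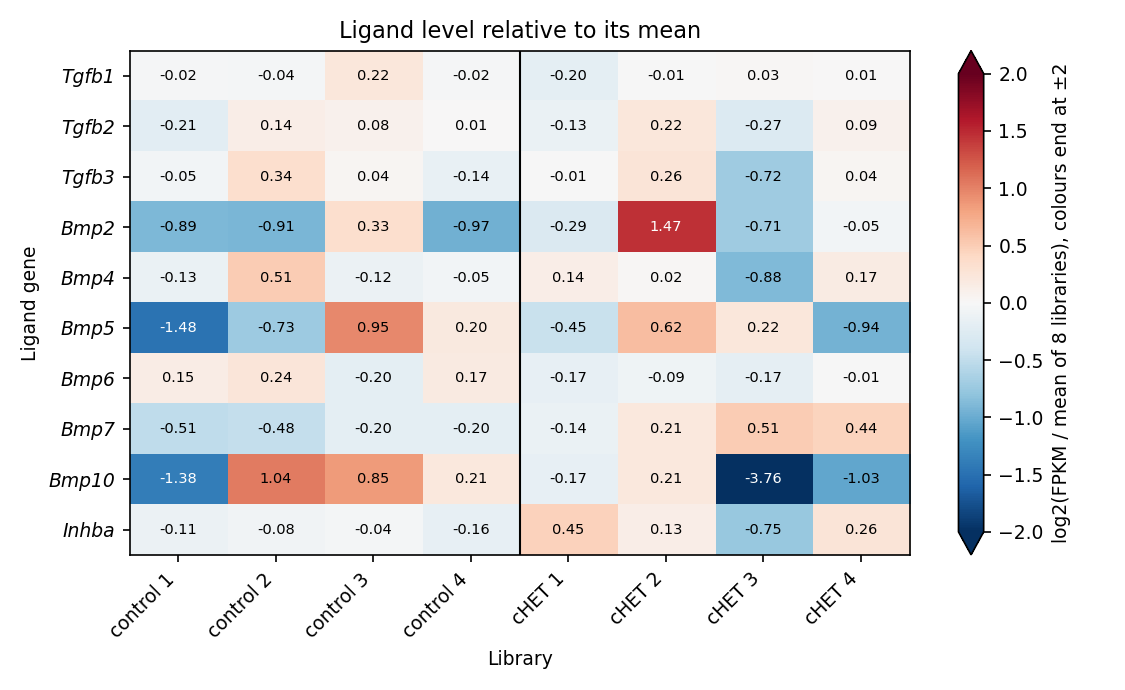
Log2 of each ligand's FPKM over its own mean of the 8 libraries, with libraries as columns, ligands as rows and the values printed in the cells. The cHET 3 column lies below 0 for Bmp10, Bmp4, Inhba, Tgfb3, Bmp2, Tgfb2 and Bmp6 and well above 0 for Bmp7 (13.6 FPKM), whose highest library it is.

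No TGF-beta isoform passed the test, and the groups overlapped for each of them. Tgfb1, a regulator of immune cells and of matrix production, was at 8.62, 8.51, 10.2 and 8.62 FPKM in control 1 to 4 and at 7.63, 8.74, 8.94 and 8.84 in cHET 1 to 4. The groups overlapped, with control 3 high and cHET 1 low, and the log2 fold change was -0.066 (95% interval -0.26 to 0.13; limma, adjusted p = 0.802). It was -0.0092 without control 3, -0.019 without cHET 1 and -0.089 without control 2. Its highest value was 1.34 times its lowest, the narrowest range among the ligands. Tgfb3, which is known for its part in palate fusion, was at 6.98, 9.17, 7.46 and 6.55 FPKM in control 1 to 4 and at 7.18, 8.67, 4.40 and 7.42 in cHET 1 to 4. Of the cHET libraries, cHET 3 alone lay outside the control range. The log2 fold change was -0.13 (limma, 95% interval -0.53 to 0.26, adjusted p = 0.805), and 0.042 without cHET 3. This interval is the widest of the 3 isoforms. Tgfb2 was at 4.52 to 6.34 FPKM over all libraries, with a log2 fold change of -0.022 (95% interval -0.27 to 0.23; limma, adjusted p = 0.954). Under TPM scaling Tgfb1 (0.024) and Tgfb2 (0.067) were above 0. Tgfb1 made up 36.0 to 50.1% of the summed FPKM of the 3 isoforms, Tgfb2 23.2 to 26.7% and Tgfb3 24.6 to 38.7%. The share of Tgfb2 thus varied least, and that of Tgfb3 was lowest, and of Tgfb1 highest, in cHET 3.

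Bmp4 and Bmp6 stood at similar levels. Bmp4, a BMP of the outflow tract and of mesenchyme, was at 4.64, 7.24, 4.68 and 4.92 FPKM in control 1 to 4 and at 5.59, 5.18, 2.77 and 5.71 in cHET 1 to 4. Control 2 was high and cHET 3 low, and the log2 fold change of -0.15 (95% interval -0.60 to 0.30; limma, adjusted p = 0.805) was 0.046 without cHET 3. Bmp6, an endothelial BMP best known for control of iron through hepcidin in the liver, was at 6.62, 7.06, 5.18 and 6.73 FPKM in control 1 to 4. In cHET 1 to 4 it was at 5.31, 5.61, 5.28 and 5.91 FPKM. Control 3 lay below every cHET library, and the other controls above them, so the groups overlapped (log2 fold change -0.17, 95% interval -0.39 to 0.043; limma, adjusted p = 0.629). Bmp6 overlaps 224 bases of Txndc5 (30.8 FPKM on average) on the other strand, Bmp4 overlaps the antisense gene Gm15222 (1.26 FPKM), and Tgfb3 overlaps Ttll5 (1.05 FPKM). The sources used here do not say whether counting used strand, so these values may share reads.

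Bmp2 and Bmp5 were the least abundant ligands. Bmp2, a signal of the atrioventricular canal myocardium, was at 0.724, 0.714, 1.69 and 0.687 FPKM in control 1 to 4 and at 1.10, 3.71, 0.823 and 1.30 in cHET 1 to 4. The value in cHET 2 rested on 263 reads (95% Poisson interval 3.28 to 4.19 FPKM), and the other libraries had 40 to 95. The log2 fold change was 0.41 (95% interval -0.25 to 1.06; limma, adjusted p = 0.679) and 0.11 without cHET 2. In cHET 2 the sum of the 8 atrial markers was the highest of all libraries (5483 FPKM), and so were Sox9 (4.37 FPKM) and Hapln1 (0.663 FPKM), which were picked for this from 7 markers of valves and cushions. The other 5 were highest elsewhere, such as Comp in control 1 (3.86 FPKM, and 2.05 in cHET 2) and Scx in cHET 3 (7.07 FPKM, and 5.77 in cHET 2). The sum of those 7 was 23.6 FPKM in cHET 2 and 23.9 in control 2, where Bmp2 was at 0.714 FPKM. Their part in the Bmp2 value was not tested. Bmp5, a close relative of Bmp6 and Bmp7, was at 0.128, 0.215, 0.693 and 0.410 FPKM in control 1 to 4 and at 0.262, 0.548, 0.418 and 0.186 in cHET 1 to 4, from 8 to 44 reads. Without a filter its log2 fold change was 0.0015 (95% interval -0.33 to 0.33; limma, adjusted p = 0.997), in a fit where 0.00674% of 29675 genes passed.

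Inhba spread more in cHET than in control. Activin A, a dimer of its product, signals through Acvr2a or Acvr2b with Acvr1b and is bound by follistatin. Inhba was at 2.62, 2.68, 2.75 and 2.53 FPKM in control 1 to 4 and at 3.87, 3.09, 1.68 and 3.40 in cHET 1 to 4. The controls lay within a narrow range, with 3 cHET libraries above it and cHET 3 below it. The log2 fold change was 0.10 (95% interval -0.28 to 0.48; limma, adjusted p = 0.845), 0.29 without cHET 3 and -0.0025 without cHET 1. The difference in spread between the groups was not tested.

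By mean level over the 8 libraries, the order was Bmp10 (20.97 FPKM), Bmp7 (9.60), Tgfb1 (8.77), Tgfb3 (7.23), Bmp6 (5.96), Tgfb2 (5.44), Bmp4 (5.09), Inhba (2.83), Bmp2 (1.34) and Bmp5 (0.357). FPKM is scaled by gene length, so these levels can be set beside each other with 1 limit. The values of Bmp6, Bmp4 and Tgfb3 may share reads with overlapping genes. The ranges of all neighbours in this order overlapped over the libraries. Within libraries, Bmp4 was above Inhba and Bmp2 above Bmp5 in 8 of 8. Bmp10 was above Bmp7, Tgfb3 above Bmp6, Bmp6 above Tgfb2 and Tgfb2 above Bmp4 in 6 of 8. Tgfb1 was above Tgfb3, and Inhba above Bmp2, in 7 of 8, while Bmp7 was above Tgfb1 in 4 of 8, which were the 4 cHET libraries. Summed BMP levels were 48.9 ± 16.8 FPKM over the controls and 37.7 ± 10.7 over cHET (SD, n = 4), of which Bmp10 made up 6.34 to 66.1%. Summed BMP levels without Bmp10 were 20.7 ± 1.37 FPKM in control and 24.1 ± 2.54 FPKM in the cHET group (SD, n = 4), and summed TGF-beta levels 22.02 ± 1.78 and 20.9 ± 2.58, and all 3 sums overlapped between the groups.

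Other ligands of the superfamily were mostly at low levels. Of 23 such genes, 6 entered the test and 0 passed, with 1 higher and 1 lower at an unadjusted p under 0.05 (median log2 fold change -0.13). Gdf10, a BMP3-like ligand, was at 1.72, 1.77, 2.46 and 1.80 FPKM in control 1 to 4 and at 1.12, 1.17, 1.31 and 1.36 in cHET 1 to 4. Every cHET value of Gdf10 lay below every control value (log2 fold change -0.39; limma, adjusted p = 0.365). Gdf15, a secreted stress factor, averaged 1.51 ± 0.206 FPKM over the controls and 2.15 ± 0.500 over cHET (SD, n = 4), with every cHET value above every control value, from 1.74 in control 2 to 1.75 in cHET 3 at the closest (log2 fold change 0.32; limma, adjusted p = 0.519). Gdf11 had 0.16 (limma, adjusted p = 0.692). Over all genes tested, groups did not overlap for 4.74%, in either direction.

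Receptors and Smads showed small differences. Of 18 receptor and co-receptor genes 14 were tested and of 16 Smads and Smad regulators 15, and 0 of either list passed (limma). The median log2 fold changes were -0.032 and 0.017. The type II receptor Acvr2a, which binds activins and BMPs, had 0.26 (95% interval 0.013 to 0.50; limma, adjusted p = 0.547), with 4.57 ± 0.780 FPKM in the controls and 5.61 ± 0.382 in cHET (SD, n = 4). The activin type I receptor Acvr1b had 0.23, and the endothelial co-receptor Eng -0.25 (82.6 ± 9.77 and 69.1 ± 5.79 FPKM). The receptors Tgfbr1 (0.0043), Tgfbr2 (-0.077), Tgfbr3 (-0.23), Bmpr1a (-0.058), Bmpr2 (-0.066) and Acvrl1 (-0.091) all overlapped between groups, with limma adjusted p-values of 0.665 to 0.987. Of these, Tgfbr2, Bmpr1a and Bmpr2 were above 0 under TPM scaling and Tgfbr1 below 0 under quantile normalization. Among the Smads, Smad1 had 0.16 and Smad2 0.17, both carriers of the signal, while the shared partner Smad4 had -0.027 (0.068 under TPM scaling) and the inhibitors Smad6 and Smad7 had -0.13 and 0.017. Eng and Acvrl1 are genes of endothelial cells. The 8 endothelial markers summed to 300.4 to 335 FPKM in control and 296 to 328 in cHET, and none was at 0. Of the 8, 4 were lower at an unadjusted p under 0.05 (limma, 0 past the adjusted threshold), against 3.92% of all genes tested. By sign, 3 of these markers were above 0 and 5 below, and the 2 most abundant, Fabp4 and Cdh5, had 0.021 and 0.38. Their part in these values was not tested.

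Secreted inhibitors and modulators ranged widely in level, with 9 of 19 tested and 0 past the test (median log2 fold change -0.035). Nog and Fst, which bind BMPs and activin, were at 0.272 and 0.297 FPKM or less in every library, and Grem1 was at 0.0278 or less. Fstl1, a follistatin-like glycoprotein, averaged 121 FPKM over the 8 libraries, the BMP-binding Twsg1 17.9 and Nbl1 8.78, the last a BMP antagonist. Sost, a BMP and Wnt antagonist of bone, had a log2 fold change of -0.59 (limma, adjusted p = 0.668), with 18.5 FPKM in control 2 and 2.44 to 6.83 in the other libraries, and was -0.20 without control 2 and -0.34 without cHET 3. Bmp1, a procollagen and chordin protease that is no BMP ligand, had -0.16, and the chordin-like Kcp -0.080. Of the latency and activation genes 13 of 15 were tested, 0 passed, 10 of the 13 were below 0, and the median was -0.12. Over all genes tested, 6245 of 13029 were below 0. Ltbp1, which ties latent TGF-beta to the matrix, was at 5.61, 6.57, 7.47 and 7.61 FPKM in control 1 to 4 and at 4.86, 5.61, 4.12 and 4.46 in cHET 1 to 4. Every cHET value of Ltbp1 was below every control value (as for 2% of all genes tested), by a margin too small to see at this rounding for control 1 and cHET 2. Its log2 fold change was -0.44 (95% interval -0.69 to -0.18; limma, adjusted p = 0.348). Dcn, a TGF-beta binding proteoglycan of fibroblasts, had -0.30 and Lrrc32, which holds latent TGF-beta at the cell surface, -0.19 (limma, adjusted p = 0.586 and 0.614). Of this list 7 of 13 were lowest in cHET 3, against 12.2% of all genes tested. Markers of epicardium and mesothelium summed to 64.2 to 111 FPKM in control and 44.2 to 64.7 in cHET over 8 genes, with none at 0. Of the 8, 4 were lower at an unadjusted p under 0.05 (limma; 3.92% of all genes tested). By sign, 2 were above 0 and 6 below, and the 2 most abundant, Aldh1a2 and Msln, had 0.17 and -0.90. The part of these markers in the latency genes was not tested.

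**Figure D5:**
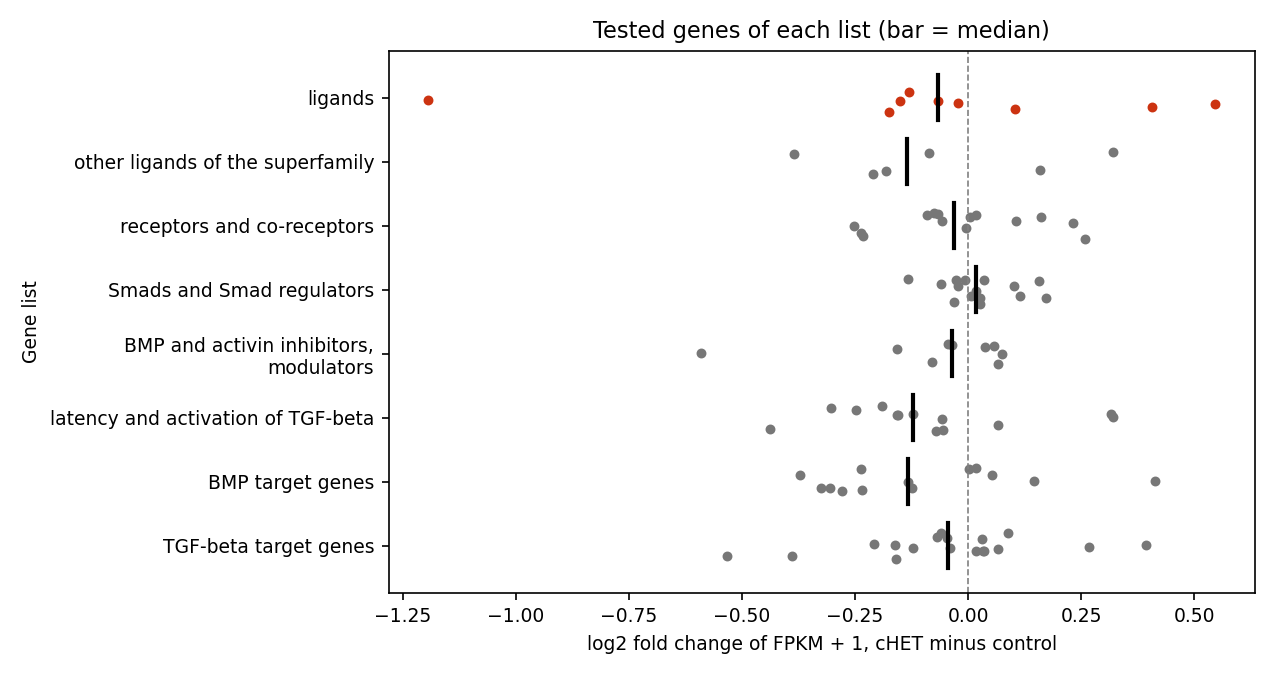
Log2 fold change of FPKM + 1 (cHET minus control, x axis) of every tested gene in the ligand list and in 7 lists of the pathway (y axis), with the median as a black bar. The list medians lie between -0.13 and 0.017, and 0 genes in these lists passed the test.

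Target genes of both branches did not pass either. Of 15 BMP target genes 13 were tested, 8 of them below 0 (median log2 fold change -0.13), and of 19 TGF-beta target genes 18 were tested, 10 below 0 (median -0.044). Id1, Id2 and Id3, direct Smad1/5 targets that block basic helix-loop-helix factors, had -0.24, -0.33 and -0.37 (limma, adjusted p = 0.735, 0.651 and 0.595). Without control 2 these were -0.042, -0.11 and -0.22, and without cHET 3 they were -0.12, -0.30 and -0.23. Id3 was at 69.5, 95.7, 64.4 and 55.6 FPKM in control 1 to 4 and at 59.1, 61.7, 40.1 and 57.2 in cHET 1 to 4, so that control 2 was highest and cHET 3 lowest. Gata2, an endothelial and blood transcription factor, averaged 4.26 ± 0.170 FPKM over the controls and 3.34 ± 0.262 over cHET (SD, n = 4), with no overlap (log2 fold change -0.28; limma, adjusted p = 0.361). Groups were apart and lower in cHET for 2% of all genes tested. Among TGF-beta targets, the metalloprotease inhibitor Timp1 had -0.53, the matrix gene Tgfbi -0.39 and Bhlhe40 0.27 (limma, adjusted p = 0.44, 0.557 and 0.572). Of the TGF-beta targets 10 of 18 were lowest in cHET 3, against 12.2% of all genes tested. Several of these targets, such as Col1a1 and Col3a1, are fibroblast markers as well. The 10 markers of macrophages and leukocytes summed to 84.1 to 195 FPKM in control and 66.0 to 100.4 in cHET, with none at 0. Of these markers 9 were tested and all 9 were below 0 (median log2 fold change -0.50), as were 6245 of the 13029 genes tested. Of the 9 markers, 4 were lower at an unadjusted p under 0.05 (limma; 3.92% of all genes tested). Their part in the target gene values was not tested.

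For each tested ligand up to 2 protein-coding genes with the most similar pattern over the 8 libraries are given, by Pearson's r of log2(FPKM + 1). They were picked as the highest among all such genes, so r is a description. For Tgfb3 these were the microfibril gene Mfap4 (r = 0.99) and Pdgfrl (0.99), and for Bmp10 Dse (0.98) and the microfibril gene Mfap2 (0.96). For Bmp7 they were Xkr5 (0.99) and the prion protein gene Prnp (0.98), and for Tgfb2 Megf6 (0.98) and Gas2l1 (0.97). Bmp4 was followed by Pi16 (0.97), Bmp2 by Cntfr (0.96) and Samd14 (0.96), and Bmp6 by Uba7 (0.95) and Xaf1 (0.94). Tgfb1 was followed by Mfsd12 (0.93) and B4gat1 (0.91), and Inhba by Mapre3 (0.96) and Lats1 (0.92). Mfap4 shows the pattern of Tgfb3, at 17.4 FPKM in cHET 3 and 44.3 to 94.5 in the other libraries. All points share their libraries, and r was not computed without single libraries.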

How the data were processed

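Per the labels' protocols, mRNA was purified from total heart RNA with poly-T beads. The authors deposited 1 FPKM value per gene and library, and the gene length. The submitters' processing notes name HISAT2 2.0.5, featureCounts 1.5.0-p3, DESeq2 1.20.0 and build mm9, with no roles, but 98.3% of shared gene IDs have the start and end of GENCODE M21, so coordinates are on GRCm38. FPKM times length gave whole multiples of 1 step in every library (tolerance 0.05), from which reads were rebuilt; the smallest chi-square distance between libraries of a group was 16.4 per gene, so none was merged.

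Genes with a mean of at least 1 FPKM entered limma 3.58.1 (R 4.3.3; trend, robust) on the log2(FPKM + 1) scale, cHET minus control, two-sided, no covariate, Benjamini-Hochberg over 13029 genes, threshold 0.05. The fold changes understate those of low genes. The fit was also run on simulated reads in which genes varied independently. Those reads lack the shared differences between libraries seen here, so they do not show how the fit handles them. The members and gene lists (189 symbols, all in the table) were chosen with earlier results of these data known. Named were all ligands, a fixed set of pathway genes, the 3 smallest p of each pathway list, the 2 most abundant markers of each cell type list and the 2 most similar genes per ligand. Names beyond this rule (Txndc5, Gm15222, Ttll5, Inha, Hfe2, Hamp, Sln, Myl4, Mybphl, Sox9, Hapln1, Comp, Fstl1, Twsg1, Nbl1) were chosen after their values were seen. Most markers are given only within their list's sum, and a further gene is not reported here. Alternatives covered pseudocount, filters, scaling, library weights, voom, a replicate block, sex and left-out libraries.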

Additional observations from a re-analysis of the deposited data

Results flagged for a closer look

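Dixon's gap test was run on 124 groups of 4 values, over the ligands and the other genes named by rule. Chance flags about 1 of 20 when groups are independent, but these groups share the same libraries, so that rate cannot be applied here. In 13 of the groups, 1 library stood far from the other 3. For the ligands these were Tgfb1 in control 3 (10.2 FPKM, others 8.51 to 8.62) and in cHET 1 (7.63, others 8.74 to 8.94), Bmp2 in control 3 (1.69, others 0.687 to 0.724) and in cHET 2 (3.71, others 0.823 to 1.30), and Bmp4 in control 2 (7.24, others 4.64 to 4.92). Among pathway genes they were Bmpr2 in control 1 (4.27, others 4.82 to 4.93), Id2 in control 2 (29.7, others 15.1 to 17.5), Gdf10 in control 3 (2.46, others 1.72 to 1.80), Sost in control 2 (18.5, others 4.64 to 6.21), Gata2 in control 4 (4.00, others 4.32 to 4.38) and Bhlhe40 in cHET 4 (14.2, others 9.75 to 10.4). Among marker genes they were Col3a1 in control 1 (148 FPKM, others 211 to 223) and Acta2 in control 2 (753 FPKM, others 321 to 352). Control 2 was the highest control library for Bmp4, Id2, Sost and Acta2.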

How the results depend on the processing

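In 18 alternatives, 0 ligands and 0 genes of the 7 pathway lists passed the limma test, and the median of the tested ligands stayed within 0.145, the spread between libraries, of its value (-0.091 to 0.046). The counts over all genes were 8 higher and 3 lower with library weights and 1 higher with the replicate block, against 3 and 0. Same-numbered libraries deviated together in 2 of 4 pairs (correlation 0.286, 0.266, 0.0521 and 0.0572), and 5 of 8 libraries correlated best with their own number. The highest correlation between any control and any cHET library, 0.344, was for control 4 and cHET 3, which have different numbers. These values do not settle whether the numbers pair the samples. The main fit did not pair them, and the replicate block, which does, called 0 ligands (limma). Signs of the log2 fold change turned under TPM scaling, which moved the median of all genes to 0.10, for Tgfb1 (0.024), Tgfb2 (0.067), Tgfbr2 (0.013), Bmpr1a (0.038), Bmpr2 (0.016) and Smad4 (0.068); for Tgfbr1 under quantile normalization (-0.015) and voom (-0.0069); for Smad7 with library weights (-0.075), sex as a covariate (-0.012) and without control 1 and control 2 (-0.093); and without those 2, for Id1 (0.10) and Gdf11 (-0.0026). With single libraries left out, the ranges were -0.089 to -0.0092 for Tgfb1, -0.091 to 0.047 for Tgfb2, -0.24 to 0.042 for Tgfb3, -0.23 to 0.046 for Bmp4, -0.0025 to 0.29 for Inhba, -0.020 to 0.042 for Tgfbr1, -0.088 to 0.024 for Smad4 and -0.11 to 0.11 for Smad7. Bmp10 kept its sign, from -1.68 without control 1 to -0.50 without cHET 3. Alternatives were run for the ligands and the tested pathway genes named, not for markers or similar genes. Of those run, no other sign turned, and the causes were not tested. Bmp5, at 8 to 44 reads, is limited by depth and had 1 alternative.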

Other observations

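The balance of the BMPs within a library, a quantity that does not depend on the total the authors divided by, was looked at after the values were seen. Bmp7 over Bmp6 was 1.02, 0.973, 1.61 and 1.24 in control 1 to 4 and 1.64, 1.99, 2.58 and 2.20 in cHET 1 to 4. Every cHET library was above every control library, with control 3 and cHET 1 close together. Bmp7 made up 31.1 to 40.6% of the summed BMP FPKM without Bmp10 in control and 41.6 to 59.5% in cHET. No test is given, since the ratio was chosen for its values.

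Hamp, the hepcidin gene and a target of BMP6 in the liver, was at 7.59 FPKM in cHET 2. In the other libraries it was at 1.70 FPKM or less, with 0 in control 1 and cHET 3. Hamp had 0 to 62 reads per library and a log2 fold change of 0.41 (limma, adjusted p = 0.828). Bmp2 (3.71 FPKM) and the summed atrial markers (5483 FPKM) were highest in cHET 2 as well, and a link between these values was not tested. The inhibin subunit gene Inha, whose product pairs with that of Inhba to form inhibin A, was at 8.65 to 16.5 FPKM, above Inhba in every library. The hemojuvelin gene Hfe2, a BMP co-receptor of muscle, was at 33.98 to 49.7 FPKM, above every ligand on average.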
